A study of Mus musculus with 8 samples.

Results

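Unperfused satellite cells, sorted without fixation, were compared gene by gene with satellite cells of mice perfused with paraformaldehyde (PFA), a fixative, before the muscle was taken apart. The comparison covers the 11695 genes, of 24328 in the deposited table, that reached at least 1 FPKM in at least 2 of the 4 libraries concerned. FPKM is a fragment level corrected for the length of the transcript and the size of the library. Each group has 2 libraries, and all mice were C57BL/6 and 2 months old. Unperfused libraries carry the genotype label wild type, and their RNA was purified with NucleoSpin RNA XS. PFA-perfused libraries carry the label Pax7-nGFP, a reporter that marks cells expressing Pax7, and their RNA was purified with a miRNeasy FFPE kit for fixed material. Perfusion, fixation, genotype label, RNA kit and a doubled dose of collagenase for the fixed muscle thus differ together, and their effects cannot be told apart. Both groups were sorted as Vcam+ cells that lacked CD31, CD45 and Sca-1. The PBS-perfused cells (Pax7-nGFP, 2 libraries) were also unfixed and are used below where a value is set beside them. The remaining 2 libraries, from wild type muscle 2.5 days after injury, entered the shared estimate of spread and the filter that set which 12515 genes were fitted and adjusted over. No label states that replicate libraries are from different animals, and the spread behind the p-values may therefore be technical.

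Satellite cells are the stem cells of skeletal muscle. At rest they sit between the muscle fibre and its basement membrane, express the transcription factor Pax7, and are held in quiescence by signals that include Notch. Dissociation of a tissue takes time in warm enzyme solution, and cells that are alive during it can still transcribe and degrade RNA. Fixation beforehand crosslinks RNA and protein in place.

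Most genes differed between the groups, and more were lower than higher in unperfused cells. Differences are given as log2(FPKM + 1) of unperfused minus PFA-perfused cells ± SE, so a positive value is higher in unperfused cells. The added 1 shrinks the difference of genes near 0. In limma, with Benjamini-Hochberg adjustment over the 12515 genes fitted and a threshold of 0.05, 73.6% of genes fitted were called, 17.4% as higher and 56.3% as lower. Among the 11695 genes compared, 76.6% were called: 2095 were higher (17.9%) and 6867 lower (58.7%). The unperfused and PFA-perfused libraries did not overlap for 87.3% of them. The median difference was -0.92. Dividing each library by a trimmed mean of its gene ratios, here called trimmed mean scaling, moved that median to -0.17 and the calls to 3783 higher (32.3%) and 4609 lower (39.4%). Quantile normalization gave a median of -0.17 and calls of 31.4% and 38.6%. All 2095 genes called higher stayed higher under trimmed mean scaling, 4609 of the 6867 called lower stayed lower, and none of those called lower became higher. Each list of genes is therefore given with both counts, to be read against these shares, and with the range of its median over the alternative settings. These settings include other scalings, pseudocounts and filters and each library left out.

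**Figure D1:**
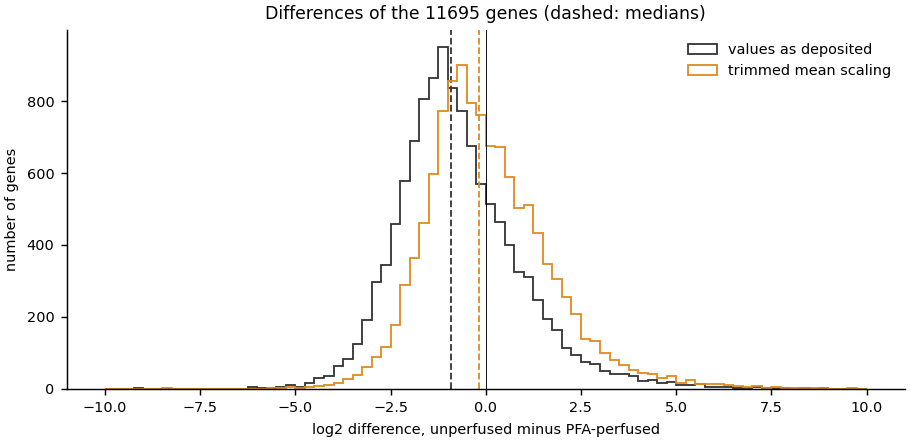
Number of genes (y axis, bins of log2 difference) against the difference of unperfused minus PFA-perfused cells (x axis, log2 scale) for the 11695 genes. The black line shows values as deposited, with its median (dashed) at -0.92, and the orange line values after trimmed mean scaling, with its median at -0.17.

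Large differences were spread over both directions. Of the called genes, 665 were higher by more than 2 on the log2 scale and 2252 lower by as much, while 145 exceeded 4 and 116 lay under -4. In both unperfused but neither PFA-perfused library 362 genes reached 1 FPKM, and 1791 did the reverse. The libraries differed as a whole: 9819 and 9469 genes reached 1 FPKM in unperfused and 11434 and 11483 in PFA-perfused libraries. Rn45s, the ribosomal RNA precursor, held 0.0285 and 0.0266% of total FPKM against 9.80 and 19.4%. The nuclear RNA Malat1 held 1.25 and 1.16% against 7.43 and 6.86%, and ribosomal protein genes 6.12 and 3.78% against 13.4 and 14.5%. Sdc4 alone held 5.84 and 8.74% of the unperfused libraries. The part of these shares in the differences below was tested only for Rn45s and Malat1: without them, and after rescaling, 2077 genes were higher and 7047 lower.

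**Figure D2:**
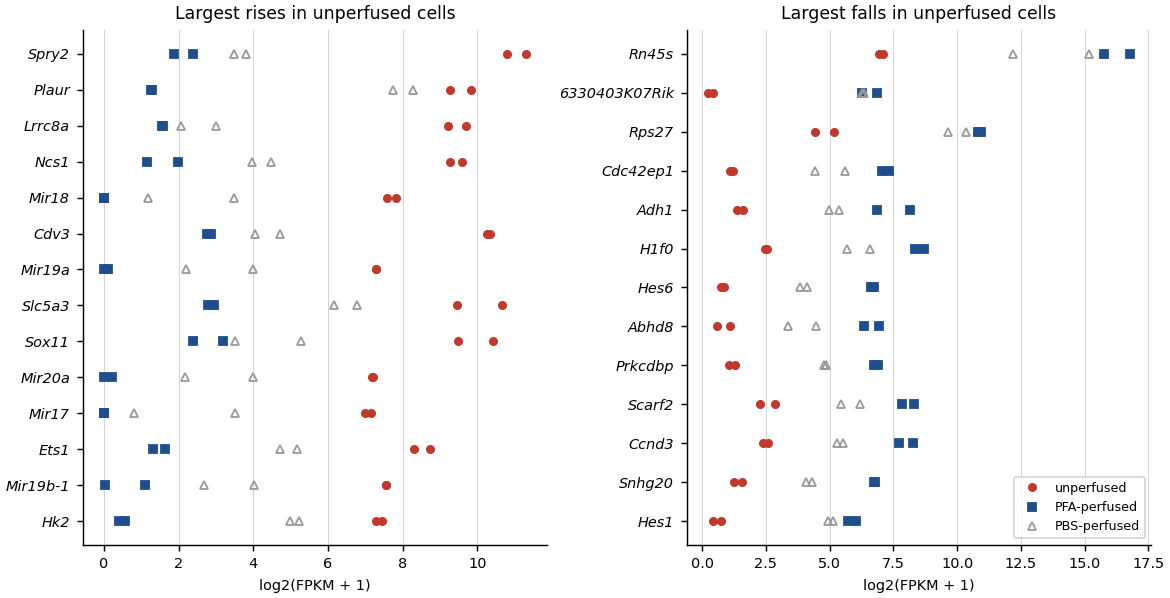
Levels as log2(FPKM + 1) (x axis) of the 14 largest rises and of 13 of the 14 largest falls (y axis) in each unperfused (red circle), PFA-perfused (blue square) and PBS-perfused (grey triangle) library. The unperfused and PFA-perfused libraries do not overlap for any of the 27 genes, which the choice of genes required, and the PBS-perfused libraries are shown beside them.

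Satellite cell markers did not move together. Pax7, the transcription factor that defines these cells, stood at 19.8 and 20.4 FPKM in the unperfused and 328 and 567 FPKM in the PFA-perfused libraries (-4.36 ± 0.31, adjusted p = 3.98e-06). Fgfr4, a fibroblast growth factor receptor, was at 30.5 and 31.0 against 324 and 296 FPKM (-3.29 ± 0.21). For both genes every PFA-perfused value was far above every unperfused value. Of all genes compared, 64.9% were lower in unperfused libraries without overlap. In bulk samples, fewer cells of a type and less RNA per cell cannot be told apart. Pax3 (2.27 and 4.14 against 17.8 and 12.4 FPKM; -1.95 ± 0.27), the paralog of Pax7, was lower as well. So were the adhesion molecule Cdh15 (-2.01 ± 0.30), the surface glycoprotein Cd34 (-2.18 ± 0.27), the repressor Msc (-2.21 ± 0.42) and Chrdl2 (-1.85 ± 0.32). Calcr, the calcitonin receptor (-1.45 ± 0.34), Megf10 (-1.07 ± 0.26) and Sdc3 (-1.20 ± 0.20) were called lower as deposited but not after trimmed mean scaling (-0.52, -0.14 and -0.42).

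In the other direction, Sdc4, a heparan sulfate proteoglycan of the satellite cell surface, was at 28149 and 40318 FPKM in the unperfused and 419.5 and 239 FPKM in the PFA-perfused libraries, a rise of 6.73 ± 0.40, adjusted p = 1.62e-06. It was the highest level of any satellite cell marker in the unperfused libraries. Ncam1, an adhesion molecule, was at 424 and 630.1 against 55.5 and 54.2 FPKM (3.21 ± 0.24), and Cxcr4, a chemokine receptor, at 17.2 and 22.96 against 2.46 and 3.58 FPKM (2.39 ± 0.24). The myogenic factors Myf5 (1261 and 2598 against 311 and 229 FPKM; 2.76 ± 0.38) and Myod1 (377 and 259 against 150.1 and 150.4 FPKM; 1.05 ± 0.26) rose, as did Itga7 (0.99 ± 0.25) and Met (0.88 ± 0.22). Vcam1, the sorting marker, was at 145 and 96.0 against 128 and 84.3 FPKM and was not called (0.18 ± 0.30, adjusted p = 0.608), nor were Six4 (0.40 ± 0.29) and Itgb1 (-0.37 ± 0.27). After trimmed mean scaling these 3 were called higher (1.13, 1.02 and 0.58), a change of sign for Itgb1. In all, 7 of 21 rose and 11 fell (10 and 8 after trimmed mean scaling). The list's median difference was -1.07 (-1.24 to -0.14 over the alternatives).

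Markers of the cell types that the sort removes summed to 532 and 504 FPKM in unperfused and 673 and 349 FPKM in PFA-perfused libraries. Most of this was Dpt, a fibroblast gene, at 474 and 456 against 633 and 318 FPKM, which was not called (0.05 ± 0.54, adjusted p = 0.938). Of 22 such markers 12 were measured, of which 2 rose and 5 fell (3 and 4 after trimmed mean scaling). Their median difference was -0.28 (-0.64 to 0.35 over the alternatives). The defining haematopoietic marker Ptprc was at or under 0.0306 FPKM in the 4 libraries, the myeloid marker Itgam was under 0.01 FPKM in the unperfused pair and listed at 0 in the PFA-perfused pair, and the endothelial genes Cdh5, Kdr and Tie1 under 1 FPKM. Emcn, also endothelial, was at 0.276 and 0.228 FPKM in unperfused and 1.38 and 0.682 FPKM in PFA-perfused libraries. The endothelial markers Pecam1 and Esam and the mural cell marker Pdgfrb did reach the minimum, and their values are not given here. Pdgfra, a fibroblast gene like Dpt, was at 0.0843 and 0.965 against 0.187 and 0.126 FPKM. The mural cell gene Myh11 was at 0.765 and 0.583 against 0.949 and 0.913 FPKM, so both stayed under 1 FPKM. Cd68, a lysosomal protein of macrophages, was at 32.1 and 22.98 against 2.11 and 2.81 FPKM (3.03 ± 0.32), and Rgs5, a mural cell gene, at 11.3 and 11.4 against 2.68 and 2.02 FPKM (1.89 ± 0.38). Among the markers that fell were Lyz2, a myeloid lysozyme (0.390 and 0.320 against 1.86 and 1.88 FPKM; -1.08 ± 0.18), Ly6a, which encodes Sca-1 (0.535 and 0.687 against 3.46 and 2.82 FPKM; -1.36 ± 0.19), and the endothelial junction gene Cldn5 (0.552 and 0.372 against 3.17 and 2.77 FPKM; -1.44 ± 0.22), named after their values were seen. After a correction for transcript length and GC content, chosen after seeing the data, Cldn5 was at -0.37 and was not called. Of the 12 measured markers, 4 reached the minimum only in both PFA-perfused libraries. The part of other cells in the differences was not tested. The Y-linked genes Ddx3y (338 and 332 against 67.4 and 54.3 FPKM; 2.45 ± 0.35) and Uty (6.17 and 5.93 against 1.72 and 1.97 FPKM; 1.31 ± 0.26) were present in all 4 libraries and rose. Eif2s3y (36.8 and 39.9 against 76.7 and 62.3 FPKM; -0.83 ± 0.22) and Kdm5d (2.04 and 2.27 against 6.32 and 5.10 FPKM; -1.08 ± 0.18) fell, which did not hold after trimmed mean scaling (0.11 and -0.34, neither called). Without PFA-perfused replicate 1, Eif2s3y was not called either (-0.69, adjusted p = 0.0623).

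Of the 14 largest rises, 5 were hairpins of the miR-17-92 cluster, a set of microRNAs cut from 1 host transcript, Mir17hg, and known for promoting proliferation. The library kit primes on poly(A) tails and does not capture mature microRNA, and reads over the hairpins cannot be told apart from reads of the host transcript. Their 5 mature products are shown because they fall into 3 seed groups. The sequences are RefSeq's, 5′ to 3′, on the plus strand of chromosome 14 in GRCm38.p6, with the seed (bases 2 to 8) in capitals. They run from chr14:115043684-115043706 (miR-17-5p) to chr14:115044358-115044380 (miR-19b-3p). miR-17-5p and miR-20a-5p share the seed AAAGUGC, both miR-19 members share GUGCAAA, and miR-18a-5p stands alone.
miR-17-5p: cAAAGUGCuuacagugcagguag
miR-20a-5p: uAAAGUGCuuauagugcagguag
miR-18a-5p: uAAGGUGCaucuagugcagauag
miR-19a-3p: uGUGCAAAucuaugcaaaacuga
miR-19b-3p: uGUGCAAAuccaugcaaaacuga

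Mir19a was at 154 and 155 against 0 and 0.0836 FPKM, Mir20a at 144 and 147 against 0 and 0.160 FPKM and Mir19b-1 at 186 and 186 against 0.0210 and 1.17 FPKM. Mir17 was at 140.2 and 127 FPKM and Mir18 at 225 and 191 FPKM in the unperfused libraries, and both are listed at 0 in the PFA-perfused libraries. The host transcript Mir17hg, named here after its values were seen, was at 3355 and 3563 FPKM in the unperfused and 71.0 and 104 FPKM in the PFA-perfused libraries (5.31 ± 0.30, adjusted p = 1.26e-06). No hairpin level of a PFA-perfused library reached a level of an unperfused library, which the choice of genes required. In the PBS-perfused libraries Mir17hg was at 454 and 305 FPKM, also below the unperfused pair (3.21 ± 0.30, adjusted p = 3.87e-05). Among all 176 microRNA genes compared, of which 162 are in the RefSeq table, 70 were called higher, 72 lower and 34 neither. Of all genes compared, 17.9% were called higher and 58.7% lower. Hairpins of 1 host transcript, such as these 5, were counted separately.

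The other largest rises came from different functions. Spry2, an inhibitor of receptor tyrosine kinase signalling, was at 1768 and 2532 FPKM in the unperfused and 2.65 and 4.25 FPKM in the PFA-perfused libraries, the largest rise of all (8.92 ± 0.27, adjusted p = 5.47e-07). Plaur, the urokinase receptor, was at 906 and 616 against 1.46 and 1.42 FPKM (8.26 ± 0.27), and Lrrc8a, a subunit of the volume-regulated anion channel, at 595 and 836 against 1.95 and 1.98 FPKM (7.90 ± 0.31). Ncs1, a calcium sensor, was at 611 and 766 against 1.24 and 2.94 FPKM (7.85 ± 0.31), Cdv3 at 1226 and 1300.2 against 5.83 and 6.33 FPKM (7.48 ± 0.26) and Slc5a3, a myo-inositol transporter, at 698 and 1610.2 against 5.93 and 6.74 FPKM (7.18 ± 0.38). The transcription factors Sox11 (709 and 1372 against 4.27 and 8.10 FPKM; 7.16 ± 0.54) and Ets1 (314 and 421 against 2.10 and 1.4998 FPKM; 7.03 ± 0.25) and the hexokinase Hk2 (154 and 173 against 0.318 and 0.484 FPKM; 6.87 ± 0.20) completed them. All of these stood below 9 FPKM in both PFA-perfused libraries and above 150 FPKM in both unperfused libraries.

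The Sprouty and Spred family, MAP kinase phosphatases and receptor tyrosine kinases split by member. Of the inhibitors, 8 of 14 rose and 4 fell (9 and 3 after trimmed mean scaling). The median over the list was 1.52 (1.02 to 2.31 over the alternatives). Spry4 was at 170.2 and 239.8 against 5.96 and 5.75 FPKM (4.89 ± 0.27) and the phosphatase Dusp8 at 83.2 and 224 against 14.7 and 4.91 FPKM (3.84 ± 0.52). Spry1, the Sprouty known for keeping satellite cells quiescent, went the other way, at 10.7 and 6.94 against 102 and 74.0 FPKM (-3.19 ± 0.27), and so did Spred2 (1.57 and 1.15 against 20.8 and 14.7 FPKM; -2.98 ± 0.28) and Dusp14 (2.89 and 2.00 against 16.5 and 11.2 FPKM; -2.10 ± 0.23). Thus Spry2 and Spry4 were higher and Spry1 lower in every unperfused library than in either PFA-perfused library. The libraries did not overlap for 87.3% of all genes compared. Of the receptor tyrosine kinases, 5 of 19 rose and 8 fell (10 and 4 after trimmed mean scaling). The members' median was 0.05 (-0.37 to 1.00 over the alternatives), which was -0.20 when unperfused replicate 2 was left out and -0.17 when PFA-perfused replicate 2 was. Musk, the agrin receptor of the neuromuscular junction, was at 864 and 1224 against 107 and 76.7 FPKM (3.49 ± 0.39), Epha2, an ephrin receptor, at 13.1 and 12.1 against 1.68 and 1.51 FPKM (2.39 ± 0.23) and Igf1r at 58.7 and 81.3 against 26.7 and 34.0 FPKM (1.17 ± 0.26). Erbb2 (0.777 and 0.819 against 7.16 and 10.3 FPKM; -2.41 ± 0.22) and the insulin receptor Insr (0.803 and 0.636 against 7.51 and 11.1 FPKM; -2.56 ± 0.23) were lower. Both are among 4 of the 19 receptors that reached the minimum only in both PFA-perfused libraries, so the count of falls is no independent support.

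Notch signalling, in which a ligand on a neighbouring cell triggers cleavage of the receptor and its intracellular part switches on Hes and Hey repressors with Rbpj and Maml, had genes called in both directions. The ligand Jag1 was at 151 and 234 FPKM in the unperfused and 9.46 and 5.65 FPKM in the PFA-perfused libraries (4.50 ± 0.30, adjusted p = 2.58e-06). The receptor Notch2 was at 166 and 269 against 20.6 and 31.3 FPKM (3.01 ± 0.36) and the coactivator Maml2 at 50 and 74.4 against 2.72 and 2.83 FPKM (4.04 ± 0.26). The target Hes1 was at 0.341 and 0.666 FPKM in the unperfused and 64.9 and 51.9 FPKM in the PFA-perfused libraries (-5.30 ± 0.21, adjusted p = 6.11e-07). Hey1, at 5.50 and 7.77 against 70.5 and 52.8 FPKM (-3.04 ± 0.25), and Heyl, at 74.8 and 56.1 against 450.4 and 375 FPKM (-2.65 ± 0.26), were named after their values were seen, as were the receptor Notch3 (72.6 and 82.3 against 433 and 386 FPKM; -2.39 ± 0.34) and the ligand Dll1 (1.78 and 1.09 against 11.99 and 12.3 FPKM; -2.45 ± 0.33). Hes6, a relative of Hes1 that is not a canonical target, was at 0.693 and 0.801 against 97.3 and 105 FPKM (-5.87 ± 0.21), and Rfng, a glycosyltransferase that modifies Notch, at 1.16 and 2.39 against 37.5 and 35.6 FPKM (-3.79 ± 0.25). For each of these genes the unperfused and PFA-perfused libraries did not overlap, as for 87.3% of all genes compared. The listed targets Hey2 and Nrarp did not reach the minimum. Over the pathway, 6 of 24 rose and 14 fell (9 and 11 after trimmed mean scaling). As deposited, the share that fell was close to the 58.7% of all genes compared. Of the 24, 5 reached the minimum only in both PFA-perfused libraries, Hes1 and Hes6 among them, so the count of falls is no independent support. As a median, the list differed by -1.45 (-1.66 to -0.66 over the alternatives).

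**Figure D3:**
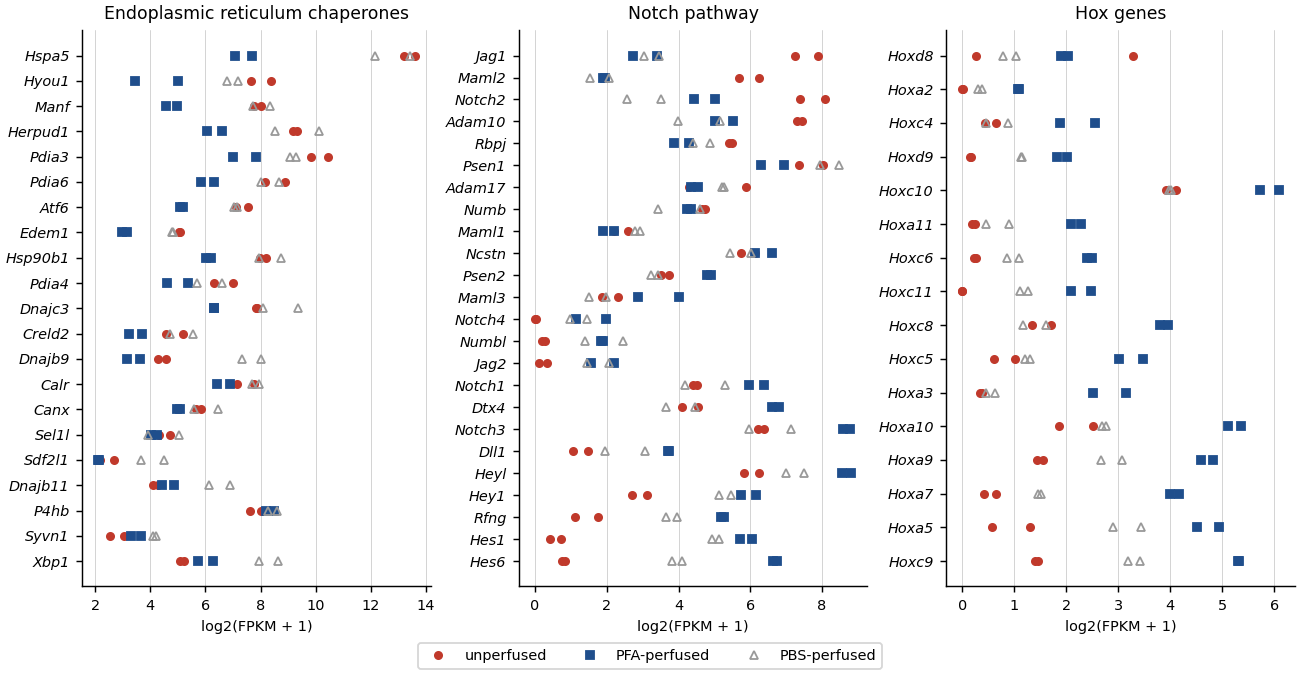
Levels as log2(FPKM + 1) (x axis) of every measured gene of the endoplasmic reticulum chaperone, Notch pathway and Hox lists (y axis, ordered by difference) in each unperfused (red circle), PFA-perfused (blue square) and PBS-perfused (grey triangle) library. Genes of the chaperone list lie mostly to the right in unperfused libraries (15 of 21 called higher), Hox genes to the left (15 of 16 called lower), and the Notch pathway holds both.

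Other signalling pathways also had members in both directions. In the TGF-beta and BMP pathway, 9 of 30 rose and 13 fell (13 and 8 after trimmed mean scaling). The median for this list was -0.50 (-0.76 to 0.40 over the alternatives). Its inhibitor Skil was at 804 and 1429 against 18.4 and 15.1 FPKM (5.92 ± 0.35), the target Id2 at 397 and 528 against 105 and 98.6 FPKM (2.16 ± 0.24) and the ligand Tgfb2 at 70.4 and 104 against 29.9 and 18.4 FPKM (1.82 ± 0.28). The receptor Tgfbr2 (25.1 and 24.6 against 123.1 and 131 FPKM; -2.31 ± 0.20), the BMP antagonist Chrd (0.679 and 0.745 against 7.58 and 11.5 FPKM; -2.60 ± 0.25) and the latent TGF-beta binding protein Ltbp4 (319.8 and 231 against 1721 and 2137 FPKM; -2.81 ± 0.37) were lower. In the Wnt pathway, 8 of 22 rose and 10 fell (12 and 5 after trimmed mean scaling). Their median difference was 0.26 (-0.24 to 1.17 over the alternatives), and 5 rose, with a median of -0.05, without unperfused replicate 2. The ubiquitin ligase Znrf3 (197 and 262 against 29.3 and 10.2 FPKM; 3.63 ± 0.95), the R-spondin receptor Lgr4 (28.6 and 48.0 against 2.89 and 1.94 FPKM; 3.49 ± 0.26) and the transcription factor Tcf7l2 (120.1 and 164 against 15.5 and 19.5 FPKM; 2.94 ± 0.32) were higher. Znrf3 was not called without unperfused replicate 2 (3.42, adjusted p = 0.0582) or without PFA-perfused replicate 2 (2.92, adjusted p = 0.0534). The feedback target Axin2 was at 0.503 and 0.383 against 11.4 and 5.87 FPKM (-2.68 ± 0.47), and Dvl2, which relays the signal, at 0.327 and 0.246 against 5.63 and 4.45 FPKM (-2.23 ± 0.18). Both are among 5 of the 22 Wnt genes that reached the minimum only in both PFA-perfused libraries, so the count of falls is no independent support. Of Yap and Taz genes and targets, 7 of 17 rose and 5 fell (11 and 2 after trimmed mean scaling). The list's median difference was 0.47 (0.15 to 1.41 over the alternatives). The targets Ctgf (188 and 40.3 against 5.29 and 6.23 FPKM; 3.71 ± 0.63) and Cyr61 (241 and 229 against 67.3 and 29.8 FPKM; 2.36 ± 0.35) were higher, though the unperfused values of Ctgf lie far apart, while Yap1 (-1.11 ± 0.23) was lower as deposited but not after trimmed mean scaling (-0.21).

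Chaperones of the endoplasmic reticulum were mostly higher. Their list also holds other genes of its stress response, Xbp1 and Syvn1 among them. Of the listed genes, 15 of 21 rose and 2 fell (17 and 0 after trimmed mean scaling). Among all genes compared, 17.9% were higher and 58.7% lower. The list had a median of 1.54 (1.31 to 2.49 over the alternatives). The chaperones fold secreted and membrane proteins and are induced when unfolded protein builds up. Hspa5 (BiP), the main Hsp70 of this compartment, was at 12369.8 and 9383 FPKM in the unperfused and 203 and 134 FPKM in the PFA-perfused libraries (6.02 ± 0.47, adjusted p = 5.50e-06). Hyou1, its nucleotide exchange factor, was at 336 and 198 against 31.1 and 10.01 FPKM (3.78 ± 0.46) and Manf, a secreted stress factor, at 258 and 216 against 30.1 and 22.99 FPKM (3.12 ± 0.27). Xbp1, a transcription factor of the response, was at 36.5 and 32.4 against 77.0 and 51.6 FPKM (-0.86 ± 0.29) and the ubiquitin ligase Syvn1 at 7.20 and 4.87 against 8.80 and 11.8 FPKM (-0.69 ± 0.23). These 2, which are not chaperones, were the only listed genes called lower as deposited. After trimmed mean scaling they had the opposite sign and were not called (0.08 and 0.15). Neither was called without unperfused replicate 2 (-0.77 and -0.45, adjusted p = 0.0924 and 0.122), Xbp1 was not called without PFA-perfused replicate 1 (-0.57, adjusted p = 0.171), and Syvn1 was not called without PFA-perfused replicate 2 (-0.50, adjusted p = 0.140). Without unperfused replicate 1, 12 genes of the list were called higher and 3 lower. The number called lower was 0 without unperfused replicate 2 and 1 without either PFA-perfused replicate.

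Promoter elements of these genes are shown because many of the promoters hold the endoplasmic reticulum stress element (ERSE), which is CCAAT, 9 bases of any kind and CCACG, searched on both strands in the 250 bases before the first listed start. RefSeq promoters (GRCm38.p6) matched 18 of the 21 measured genes, and 8 of the 18 held the element, against 33 of 27025 promoters in the whole table (0.122%). Among matched promoters, 7 of the 1577 of genes called higher (0.444%) and 7 of the 5519 of genes called lower (0.127%) held it. The 7 promoters of genes called higher are those of the 7 chaperones called higher below, so 0.444% restates that list. The element of each gene is given 5′ to 3′ in the direction of the motif, with its fixed letters in capitals, and Hsp90b1 held it at 2 places. Apart from Hspa5 and Syvn1 these genes were singled out after their values were seen. Of the 8 genes, 7 were called higher and Syvn1 was called lower. After Hspa5, the largest differences were those of Pdia6, a disulfide isomerase (472 and 285 against 78.1 and 56.9 FPKM; 2.44 ± 0.34), and Hsp90b1, the Hsp90 of this compartment (292 and 250.1 against 73.3 and 63.6 FPKM; 1.97 ± 0.30). Dnajc3 (1.54 ± 0.36), Creld2 (1.42 ± 0.32), Calr (0.78 ± 0.29) and Canx (0.72 ± 0.28) were smaller, the lectin chaperones Calr and Canx nearest to the threshold (adjusted p = 0.0350 and 0.0447 in limma).
Hspa5 (chr2:34772025-34772043): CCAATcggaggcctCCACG
Pdia6 (chr12:17266491-17266509): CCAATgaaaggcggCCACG
Hsp90b1 (chr10:86705638-86705656): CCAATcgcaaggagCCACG
Hsp90b1 (chr10:86705533-86705551): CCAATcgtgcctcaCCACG
Dnajc3 (chr14:118937827-118937845): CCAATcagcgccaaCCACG
Creld2 (chr15:88819520-88819538): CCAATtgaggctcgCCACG
Calr (chr8:84847075-84847093): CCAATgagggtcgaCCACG
Canx (chr11:50325800-50325818): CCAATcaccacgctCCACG
Syvn1 (chr19:6046532-6046550): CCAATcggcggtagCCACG

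The promoter of Hspa5, on the plus strand at chr2:34771840-34772089 (GRCm38.p6), holds the element in capitals, ending 47 bases before the start.
Hspa5: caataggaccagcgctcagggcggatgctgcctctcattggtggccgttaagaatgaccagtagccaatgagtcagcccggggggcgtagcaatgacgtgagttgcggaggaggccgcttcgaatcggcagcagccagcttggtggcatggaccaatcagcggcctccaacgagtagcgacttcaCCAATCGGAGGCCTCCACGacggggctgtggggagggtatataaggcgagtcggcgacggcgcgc

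Targets of Atf4, the transcription factor of the integrated stress response, had more rises than falls: 10 of 18 rose and 3 fell (14 and 0 after trimmed mean scaling). The median over the list was 0.85 (0.77 to 1.72 over the alternatives). All 18 reached the minimum in both unperfused libraries and 14 in both PFA-perfused libraries. Chac1 entered through the unperfused pair alone, so the count of rises is no independent support. Chac1, which degrades glutathione, was at 40.5 and 30.2 against 0.258 and 0.0355 FPKM (4.98 ± 0.24), the folate enzyme Mthfd2 at 71.8 and 36.6 against 1.31 and 1.91 FPKM (4.33 ± 0.31) and the phosphatase subunit Ppp1r15a at 530.1 and 318 against 22.9 and 17.5 FPKM (4.29 ± 0.31). Ddit3 (-0.81 ± 0.25), Shmt2 (-0.83 ± 0.23) and Vldlr (-1.14 ± 0.30) were called lower, and none of them after trimmed mean scaling (0.06, 0.07 and -0.20). Ddit3 and Vldlr were also not called without unperfused replicate 2 (-0.50 and -0.95, adjusted p = 0.0916 and 0.0542) or without PFA-perfused replicate 2 (-0.62 and -0.96, adjusted p = 0.108 and 0.0518), so 1 target was called lower in either case. Of the amino acid transporters, 7 of 16 rose and 5 fell (10 and 3 after trimmed mean scaling). The members' median was 0.13 (-0.08 to 1.07 over the alternatives). The median was -0.08 without unperfused replicate 1, and 3 fell without PFA-perfused replicate 1. The cystine carrier Slc7a11 was at 23.2 and 7.84 FPKM in unperfused libraries and is listed at 0 in both PFA-perfused libraries. The cationic carrier Slc7a1 was at 24.3 and 20.9 against 1.37 and 1.40 FPKM (3.31 ± 0.23), whereas its relative Slc7a2 was at 6.75 and 4.20 against 50.4 and 41.1 FPKM (-2.87 ± 0.29). Among aminoacyl-tRNA synthetases, 8 of 36 rose and 18 fell (14 and 13 after trimmed mean scaling). As a median, the list differed by -0.77 (-0.9998 to 0.10 over the alternatives). The cytosolic enzymes Nars (578 and 327 against 51.8 and 42.3 FPKM; 3.19 ± 0.41) and Iars (70.9 and 47.5 against 8.66 and 10.7 FPKM; 2.47 ± 0.32) were higher, and the mitochondrial enzymes Cars2 (0.666 and 0.909 against 15.7 and 14.3 FPKM; -3.17 ± 0.21) and Iars2 (1.16 and 1.10 against 10.8 and 9.61 FPKM; -2.39 ± 0.20) lower, as was cytosolic Mars (-2.53 ± 0.20). Of Nrf2 targets, which defend against oxidants, 8 of 19 rose and 5 fell (13 and 3 after trimmed mean scaling). The median for this list was 0.38 (0.14 to 1.26 over the alternatives). Heme oxygenase Hmox1 was at 687 and 172 against 6.29 and 5.51 FPKM (5.65 ± 0.82), with unperfused values far apart, and sulfiredoxin Srxn1 at 170.4 and 151 against 5.36 and 4.02 FPKM (4.84 ± 0.26). The Nrf2 inhibitor Keap1 (7.41 and 5.14 against 45.3 and 41.9 FPKM; -2.63 ± 0.23) and thioredoxin Txn1 (13.0 and 6.94 against 48.9 and 47.5 FPKM; -2.22 ± 0.35) were lower.

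Chemokines and cytokines were called in both directions. Of 79 listed genes 30 were measured, and 15 of 30 rose and 12 fell (17 and 7 after trimmed mean scaling). Their median difference was 0.78 (0.38 to 1.48 over the alternatives). Of the 30, 21 reached the minimum in both unperfused libraries, 19 in both PFA-perfused libraries and 3 in the PFA-perfused pair alone. Ccl2 and Cxcl2 entered through the unperfused pair alone, so neither count is independent support. Ccl2, which attracts monocytes, was at 110.2 and 119 against 0.918 and 0.984 FPKM (5.89 ± 0.27). Cxcl2 was at 57.0 and 54.3 FPKM in unperfused libraries and is listed at 0 in both PFA-perfused libraries. Cxcl1 was at 878 and 848 against 22.5 and 4.14 FPKM (6.30 ± 0.68, adjusted p = 3.43e-05), and every unperfused value of these 3 genes exceeded both PFA-perfused values. Of all genes compared, 22.5% were higher without overlap. Cxcl12 (17.9 and 14.5 against 100 and 99.9 FPKM; -2.56 ± 0.24), Il18 (2.85 and 2.13 against 13.0 and 11.4 FPKM; -1.93 ± 0.22) and Ccl19 (5.06 and 6.73 against 30.1 and 19.5 FPKM; -1.88 ± 0.27) were lower. The NF-kB motif lay in the 250 bases before the start of 7 of the 21 chemokine and cytokine genes with a RefSeq promoter, against 7.01% of all promoters in the table, 10.1% of those of genes called higher and 7.79% of those of genes called lower. These 7 genes were Cxcl1, Cxcl2, Cxcl3, Cxcl10, Csf1, Il6 and Lif, all called higher and named by the motif after their values were seen. The promoter of Cxcl1, on the plus strand at chr5:90890995-90891244 (GRCm38.p6), holds 2 matches that overlap (capitals).
Cxcl1: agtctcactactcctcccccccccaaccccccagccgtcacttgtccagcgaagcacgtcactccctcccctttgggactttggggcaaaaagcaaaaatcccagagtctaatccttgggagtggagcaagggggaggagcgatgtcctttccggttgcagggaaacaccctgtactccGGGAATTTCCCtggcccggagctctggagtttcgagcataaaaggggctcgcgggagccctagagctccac

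Interferon response and antigen presentation genes were called in both directions. Of interferon response genes, 5 of 23 rose and 10 fell (11 and 4 after trimmed mean scaling). The list's median difference was -0.15 (-0.55 to 0.81 over the alternatives). The guanylate binding protein Gbp2 was at 50.3 and 45.0 against 7.70 and 8.22 FPKM (2.44 ± 0.19) and the transcription factor Irf1 at 27.7 and 39.6 against 10.5 and 13.1 FPKM (1.42 ± 0.32), while Xaf1 was at 5.78 and 4.82 against 71.7 and 73.6 FPKM (-3.55 ± 0.33). Of the MHC class I and antigen processing genes, 2 of 16 rose and 7 fell (9 and 6 after trimmed mean scaling). The median over the list was -0.06 (-0.66 to 0.84 over the alternatives). The class I chain H2-K1 was at 592 and 1057 against 207 and 198 FPKM (1.96 ± 0.35), and the immunoproteasome subunits Psmb8 (1.10 and 1.42 against 17.3 and 15.4 FPKM; -2.94 ± 0.23), Psmb9 (-2.56 ± 0.21) and Psmb10 (-2.44 ± 0.21) were lower. Leaving out unperfused replicate 2 gave a median of 0.08, and leaving out PFA-perfused replicate 1 gave 0.05. Reads of class I genes are hard to assign among their close copies, so H2-K1 is uncertain.

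The largest falls included Rn45s, at 137 and 122.9 FPKM in the unperfused and 56137 and 112867 FPKM in the PFA-perfused libraries (-9.25 ± 0.82, adjusted p = 1.12e-05). Rps27, a ribosomal protein, was at 34.7 and 20.3 against 1783 and 1976 FPKM (-6.09 ± 0.34), and its pseudogenes are so alike that this value is uncertain. The transcript 6330403K07Rik was at 0.170 and 0.355 against 114 and 77.1 FPKM (-6.24 ± 0.23). Adh1, an alcohol dehydrogenase that also acts on retinol, was at 1.56 and 2.03 against 116 and 281 FPKM (-6.03 ± 0.38). The linker histone H1f0, a histone of non-dividing cells, was at 4.77 and 4.597 against 411 and 326 FPKM (-6.01 ± 0.30) and Cdc42ep1, an effector of Cdc42, at 1.15 and 1.31 against 162 and 132 FPKM (-6.05 ± 0.34). Abhd8 (-5.81 ± 0.37), Prkcdbp (-5.65 ± 0.20), Scarf2 (-5.51 ± 0.31) and the noncoding RNA Snhg20 (-5.34 ± 0.20) were also among them. H1f0 stood above 300 FPKM in both PFA-perfused libraries and stayed below 5 FPKM in both unperfused libraries.

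Hox genes, which specify position along the body axis and keep a regional pattern in adult satellite cells, fell almost without exception. Of 39 listed genes 16 reached the minimum, and 0 of 16 rose and 15 fell (0 and 15 after trimmed mean scaling). The members' median was -2.32 (-3.71 to -1.55 over the alternatives), against -0.92 for all genes compared. In limma, no Hox gene was higher at an unadjusted p under 0.05 either. Hoxc9 was at 1.74 and 1.63 FPKM in the unperfused and 38.9 and 38.3 FPKM in the PFA-perfused libraries (-3.88 ± 0.18, adjusted p = 7.79e-07), Hoxa5 at 0.478 and 1.46 against 22.02 and 29.7 FPKM (-3.80 ± 0.29) and Hoxa7 at 0.576 and 0.329 against 15.0 and 17.1 FPKM (-3.55 ± 0.18). All 16 genes reached the minimum in both PFA-perfused libraries, 8 of them in no unperfused library, so the count is no independent support. Hoxc10 kept the highest level in unperfused cells, at 14.1 and 16.3 against 67.0 and 51.9 FPKM (-1.90 ± 0.21). Hoxd8 was the exception, at 0.194 and 8.80 against 3.09 and 2.72 FPKM (-0.19 ± 0.74, adjusted p = 0.829), with 1 unperfused value above and 1 below both PFA-perfused values. Hoxc10 and Hoxd8 were named after their values were seen. Without unperfused replicate 1, 1 Hox gene was called higher. Of the limb and axial identity factors, 1 of 11 rose and 7 fell (3 and 7 after trimmed mean scaling). As a median, the list differed by -1.12 (-2.47 to -0.51 over the alternatives). All 11 reached the minimum in both PFA-perfused libraries, and 5 of them in no other library of the comparison, so this count too is no independent support. Lbx1, needed by muscle precursors that migrate into the limb, was at 0.0198 and 0.0267 against 11.7 and 8.82 FPKM (-3.45 ± 0.32), Pitx3 at 0.0162 and 0.0270 against 15.3 and 13.8 FPKM (-3.93 ± 0.21) and Tbx1 at 0.0257 and 0.0560 against 7.53 and 8.05 FPKM (-3.08 ± 0.19), so all 3 were close to absent from unperfused libraries. Tbx3 was at 3.47 and 14.4 against 1.53 and 1.498 FPKM (1.72 ± 0.46), and 2 of these factors were called higher without unperfused replicate 2.

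Among transcription and chromatin regulators, genes of each family were called in both directions. Of 247 zinc finger Zfp genes, 23 rose and 178 fell (52 and 115 after trimmed mean scaling). Of the 247, 82 reached the minimum only in both PFA-perfused libraries, so the count of falls is no independent support. The median for this list was -1.06 (-1.52 to -0.22 over the alternatives). Zfp949 was at 1.02 and 1.38 against 59.8 and 109.5 FPKM (-5.22 ± 0.28) and Zfp771 at 0.545 and 0.397 against 22.5 and 19.3 FPKM (-3.90 ± 0.19), whereas Zfp948 was at 39.9 and 73.2 against 1.80 and 1.39 FPKM (4.41 ± 0.38). Of Kruppel-like factors, 7 of 11 rose and 4 fell (7 and 3 after trimmed mean scaling). Their median difference was 1.61 (1.18 to 2.56 over the alternatives). Klf13 was at 586 and 966 against 14.9 and 21.3 FPKM (5.33 ± 0.32) and Klf4, a reprogramming factor, at 133 and 203 against 12.7 and 8.58 FPKM (3.85 ± 0.27), while Klf15 (1.305 and 0.981 against 18.5 and 16.2 FPKM; -3.10 ± 0.21) and Klf3 (1.58 and 2.30 against 20.0 and 20.9 FPKM; -2.88 ± 0.21) were lower. Of Polycomb proteins and histone demethylases, 15 of 35 rose and 12 fell (20 and 9 after trimmed mean scaling). The list's median difference was 0.29 (0.04 to 1.08 over the alternatives). Kdm6b, which removes the Polycomb mark H3K27me3, was at 547 and 728 FPKM in the unperfused and 7.11 and 6.81 FPKM in the PFA-perfused libraries (6.31 ± 0.34, adjusted p = 1.11e-06). The lysine demethylases Kdm5c (35.4 and 37.4 against 6.73 and 6.07 FPKM; 2.34 ± 0.19) and Kdm2a (60.4 and 55.0 against 13.3 and 12.2 FPKM; 2.09 ± 0.19) rose as well, and the Polycomb subunits Cbx7 (1.59 and 2.33 against 26.9 and 28.6 FPKM; -3.29 ± 0.20), Cbx6 (0.978 and 1.51 against 15.9 and 15.5 FPKM; -2.91 ± 0.21) and Pcgf2 (0.497 and 0.572 against 7.82 and 10.7 FPKM; -2.73 ± 0.20) fell. In the Myc, Max and Mxd family, 4 of 10 rose and 3 fell (5 and 3 after trimmed mean scaling). The family's median was 0.24 (0.08 to 1.13 over the alternatives). Myc itself was at 96.4 and 102 against 9.33 and 8.04 FPKM (3.38 ± 0.20), and its Max network relatives Mga (197 and 244 against 70.1 and 62.3 FPKM; 1.71 ± 0.22) and Mnt (9.96 and 9.34 against 2.76 and 2.95 FPKM; 1.47 ± 0.19) were higher. The Max network members Mxd4 (0.834 and 0.404 against 9.06 and 6.41 FPKM; -2.43 ± 0.21) and Mlx (1.84 and 1.13 against 18.8 and 14.1 FPKM; -2.81 ± 0.22) were lower.

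The circadian clock, a loop in which Clock and Bmal1 drive Per and Cry repressors, had members in both directions. Of 18 genes 7 rose and 8 fell (9 and 4 after trimmed mean scaling). The median over the list was -0.14 (-0.19 to 0.75 over the alternatives). Dbp, a clock output, was at 0.316 and 0.397 FPKM in the unperfused and 36.5 and 28.3 FPKM in the PFA-perfused libraries (-4.61 ± 0.27, adjusted p = 1.73e-06), Per3 at 1.53 and 1.51 against 20.9 and 17.7 FPKM (-3.00 ± 0.19) and Per1, also a glucocorticoid target, at 4.97 and 6.28 against 93.2 and 34.9 FPKM (-3.14 ± 0.41). The repressors Bhlhe41 (81.5 and 152 against 9.38 and 13.6 FPKM; 3.19 ± 0.36), Bhlhe40 (34.6 and 33.3 against 6.04 and 2.78 FPKM; 2.76 ± 0.33) and Ciart (8.11 and 4.99 against 0.411 and 1.07 FPKM; 2.11 ± 0.26) were higher. The hour at which the mice were killed is not given in the sources used here, so its part was not tested. Without PFA-perfused replicate 1, 4 clock genes were called lower, and without unperfused replicate 2 the median was 0.07. Of glucocorticoid targets, 4 of 12 rose and 5 fell (6 and 3 after trimmed mean scaling). The members' median was -0.11 (-0.38 to 0.82 over the alternatives), which was 0.16 when unperfused replicate 2 was left out and 0.23 when PFA-perfused replicate 2 was. Tsc22d3 (43.9 and 46.9 against 319 and 226 FPKM; -2.54 ± 0.27) and Ddit4 (0.200 and 0.395 against 14.4 and 4.12 FPKM; -2.78 ± 0.43) were lower, while Pdk4 (43.3 and 34.0 against 14.5 and 8.04 FPKM; 1.73 ± 0.28), Klf9 (1.61 ± 0.30) and the metallothionein Mt1 (1338 and 471 against 169 and 251 FPKM; 1.94 ± 0.47) were higher. Of hypoxia targets, 5 of 13 rose and 2 fell (9 and 2 after trimmed mean scaling), with Ndrg1 at 256 and 292 against 90.1 and 78.4 FPKM (1.69 ± 0.30) and Bnip3 at 1.70 and 1.58 against 9.09 and 5.91 FPKM (-1.66 ± 0.35), and a median of 0.47 (0.16 to 1.33 over the alternatives).

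Genes of mitochondrial translation were mostly lower. Of mitochondrial ribosomal proteins, nuclear genes for the ribosome that makes the respiratory chain subunits of the mitochondrial genome, 0 of 77 rose and 68 fell (4 and 53 after trimmed mean scaling). As a median, the list differed by -1.93 (-2.33 to -1.05 over the alternatives). None was higher in limma at an unadjusted p under 0.05. Mrps26 was at 4.63 and 3.08 FPKM in the unperfused and 142 and 146 FPKM in the PFA-perfused libraries (-4.92 ± 0.22, adjusted p = 6.56e-07), Mrps24 at 4.099 and 2.81 against 94.2 and 90.0 FPKM (-4.40 ± 0.21) and Mrps15 at 3.60 and 3.21 against 56.8 and 58.6 FPKM (-3.74 ± 0.20). Proteasome subunits had calls of 2 rises and 20 falls among 34 (8 and 15 after trimmed mean scaling). The median for this list was -1.10 (-1.42 to -0.16 over the alternatives). As deposited, the falls among them were about as frequent as among all genes compared. The regulatory subunits Psmd11 (348 and 308 against 100.2 and 84.3 FPKM; 1.82 ± 0.25) and Psmd2 (344 and 258 against 131 and 112 FPKM; 1.29 ± 0.30) were the 2 that rose, and Psmd9 (15.9 and 8.58 against 95.8 and 79.5 FPKM; -2.80 ± 0.28) and Psmd3 (8.93 and 7.66 against 64.4 and 57.1 FPKM; -2.73 ± 0.21) fell. Of autophagy and lysosome genes, 7 of 35 rose and 19 fell (14 and 15 after trimmed mean scaling). As deposited, both shares were close to those of all genes compared (17.9% and 58.7%). The list's median difference was -1.10 (-1.23 to -0.26 over the alternatives), and 4 rose without PFA-perfused replicate 2. The lysosomal membrane protein Lamp1 was at 65.5 and 59.6 against 832 and 563 FPKM (-3.43 ± 0.26), the lysosomal channel Mcoln1 at 1.43 and 1.34 against 37.6 and 28.6 FPKM (-3.83 ± 0.22) and the conjugating enzyme Atg3 at 5.84 and 5.93 against 57.4 and 39.2 FPKM (-2.82 ± 0.26), while Gabarapl1 was at 464 and 425 against 118 and 129 FPKM (1.84 ± 0.22). Of translation factors, 13 of 62 rose and 31 fell (25 and 15 after trimmed mean scaling). This list also holds the methyltransferase Eef2kmt, which was called lower (-2.77 ± 0.25). The list's median was -0.65 (-0.80 to 0.18 over the alternatives). Eif1a (278 and 221 against 17.2 and 13.7 FPKM; 3.93 ± 0.26) and the helicase Eif4a1 (1109 and 936 against 169.8 and 107 FPKM; 2.91 ± 0.42) rose and Eif3f (21.4 and 14.9 against 245 and 255 FPKM; -3.74 ± 0.26) fell.

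Genes of glucose metabolism were called in both directions. Hexokinase Hk2 and the glucose transporters Slc2a3 (48.5 and 45.2 against 1.95 and 4.01 FPKM; 3.64 ± 0.32) and Slc2a1 (17.6 and 13.2 against 6.43 and 7.55 FPKM; 1.02 ± 0.25) were higher. The enzymes Gapdh (116 and 66.1 against 500.3 and 569.7 FPKM; -2.60 ± 0.37), Tpi1 (3.85 and 2.54 against 32.0 and 45.7 FPKM; -3.24 ± 0.27) and Ldhb (1.85 and 1.10 against 30.1 and 22.2 FPKM; -3.46 ± 0.29) were lower, and Gapdh has many pseudogene copies that make its value uncertain, as has Actb below. Over the list, 4 of 20 rose and 8 fell (10 and 7 after trimmed mean scaling). Their median was -0.45 (-0.62 to 0.50 over the alternatives). In cholesterol and fatty acid synthesis, 5 of 29 rose and 14 fell (11 and 8 after trimmed mean scaling). The members' median was -0.79 (-1.04 to 0.11 over the alternatives), and 2 rose without unperfused replicate 1 or without PFA-perfused replicate 2. Insig1, which holds back sterol synthesis when sterols are plentiful, was higher (204 and 368 against 22.6 and 9.71 FPKM; 4.11 ± 0.39). The regulator Srebf1 was lower (4.98 and 3.59 against 27.1 and 29.5 FPKM; -2.48 ± 0.26).

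Cell cycle genes were called lower more often than higher as deposited, as were all genes compared, and 2 inhibitors were among the higher. Of G1 cyclins and cell cycle inhibitors, 4 of 21 rose and 15 fell (6 and 8 after trimmed mean scaling). As a median, the list differed by -0.96 (-1.39 to -0.25 over the alternatives), and 9 were called lower without unperfused replicate 2. Ccnd3, a D-type cyclin, was at 4.95 and 4.28 FPKM in the unperfused and 306 and 208 FPKM in the PFA-perfused libraries (-5.50 ± 0.24, adjusted p = 6.32e-07), and the inhibitor Cdkn2c at 1.38 and 1.87 against 35.6 and 27.2 FPKM (-3.62 ± 0.23). The inhibitors Cdkn1a (268 and 328 against 21.2 and 36.6 FPKM; 3.36 ± 0.35) and Cdkn1b (57.1 and 127 against 7.61 and 9.66 FPKM; 3.17 ± 0.36) were higher. Of DNA replication genes, 2 of 25 rose and 15 fell (5 and 7 after trimmed mean scaling). The median for this list was -0.75 (-0.99 to 0.19 over the alternatives). The clamp loader subunits Rfc5 (0.484 and 0.413 against 11.3 and 7.71 FPKM; -2.83 ± 0.24) and Rfc2 (5.83 and 3.88 against 31.9 and 34.0 FPKM; -2.55 ± 0.22) fell, and Rrm2, a ribonucleotide reductase subunit, was at 27.1 and 26.8 against 3.52 and 5.21 FPKM (2.40 ± 0.65). Rrm2 was not called without unperfused replicate 1 (2.39, adjusted p = 0.0504) or without unperfused replicate 2 (2.41, adjusted p = 0.0517), and no replication gene was called higher without the former and 1 without the latter or without PFA-perfused replicate 1. Among mitosis genes, 4 of the 18 measured reached the minimum only in both PFA-perfused libraries. Of all 18, 2 rose and 8 fell (5 and 5 after trimmed mean scaling). Their median difference was -0.59 (-0.82 to 0.41 over the alternatives), and 1 rose without either unperfused replicate or without PFA-perfused replicate 1. Among the Bcl2 family, 3 of 10 rose and 5 fell (4 and 3 after trimmed mean scaling), and 3 fell without PFA-perfused replicate 1. This family's median was -0.69 (-0.95 to 0.22 over the alternatives). The antiapoptotic Bcl2l1 (152 and 207 against 11.5 and 13.4 FPKM; 3.73 ± 0.25) and Mcl1 (1.43 ± 0.22) and the proapoptotic Pmaip1 (29.7 and 31.8 against 0.522 and 0.767 FPKM; 4.27 ± 0.21) were higher, and the proapoptotic Bax (10.4 and 6.56 against 68.1 and 63.0 FPKM; -2.84 ± 0.24) and Bad (1.98 and 1.09 against 14.7 and 15.1 FPKM; -2.67 ± 0.21) lower.

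RNA processing factors were divided. Of SR proteins and hnRNPs, which steer splicing, 10 of 36 rose and 11 fell (23 and 6 after trimmed mean scaling). The list's median difference was 0.04 (-0.06 to 0.97 over the alternatives), and 6 rose, with a median of -0.06, without PFA-perfused replicate 2. Hnrnpa1 was at 428 and 293 against 21.7 and 16.9 FPKM (4.14 ± 0.32) and Srsf2 at 967 and 1592 against 131 and 89.4 FPKM (3.51 ± 0.33), and Hnrnpul2 at 4.61 and 4.98 against 31.6 and 37.9 FPKM (-2.62 ± 0.22). Of mRNA decay and stability factors, 11 of 32 rose and 12 fell (19 and 8 after trimmed mean scaling). The median over the list was -0.05 (-0.47 to 0.85 over the alternatives), which was 0.15 without unperfused replicate 2. Btg1 and Btg2, which recruit a deadenylase, were at 2648 and 4047 against 327 and 241 FPKM (3.54 ± 0.32) and 334 and 633 against 52.2 and 23.9 FPKM (3.66 ± 0.40). Pan3, a subunit of a different deadenylase, was at 75.9 and 91.1 against 5.45 and 5.37 FPKM (3.71 ± 0.19). Zfp36l1, which destabilizes AU-rich messages, was at 93.7 and 95.1 against 839 and 589 FPKM (-2.88 ± 0.25).

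Genes for the matrix, adhesion and the cytoskeleton were called in both directions. Of a list of integrins, 4 of 9 rose and 3 fell (6 and 2 after trimmed mean scaling). Picked by symbol, it also holds the integrin-binding protein Itgb1bp1, which was called lower (-1.61 ± 0.20). The list's median was 0.28 (-0.27 to 1.10 over the alternatives). It turned to -0.21 when unperfused replicate 1 was left out, and to -0.02 when PFA-perfused replicate 2 was. The adhesion receptor Itga5 was at 70.7 and 58.5 against 3.16 and 3.21 FPKM (3.96 ± 0.20) and the matrix protein Tnc at 131 and 41.4 FPKM in the unperfused and 0.198 and 1.04 FPKM in the PFA-perfused libraries (5.58 ± 0.48, adjusted p = 9.86e-06). Among matrix proteases and inhibitors, 8 of 18 rose and 6 fell (11 and 6 after trimmed mean scaling). The members' median was 0.63 (0.18 to 1.32 over the alternatives). The aggrecanase Adamts4 was at 389 and 393 against 6.21 and 7.17 FPKM (5.67 ± 0.21). Mmp2 (72.6 and 72.3 against 334 and 303 FPKM; -2.12 ± 0.23) and Adamts5 (17.5 and 38.8 against 125 and 119 FPKM; -2.18 ± 0.33) were lower. Of interstitial matrix genes, 4 of 19 rose and 9 fell (8 and 3 after trimmed mean scaling). As a median, the list differed by -0.44 (-0.82 to 0.43 over the alternatives), and 1 was called higher without unperfused replicate 1. Of basement membrane genes, 3 of 16 rose and 7 fell (8 and 3 after trimmed mean scaling). The median for this list was -0.23 (-0.49 to 0.69 over the alternatives), which was 0.01 without PFA-perfused replicate 1. None was called higher without PFA-perfused replicate 2, and 1 without unperfused replicate 1. Lama3 was at 36.7 and 48.7 against 229.6 and 190.5 FPKM (-2.28 ± 0.29) and Lamb2 at 102 and 92.4 against 274 and 321 FPKM (-1.60 ± 0.21). Beta-actin, Actb, was at 11065 and 13669 FPKM in the unperfused and 711 and 445 FPKM in the PFA-perfused libraries (4.45 ± 0.42, adjusted p = 1.59e-05), Tpm3 at 454 and 653 against 73.3 and 60.5 FPKM (3.01 ± 0.33) and Flnc at 1493 and 1101 against 223 and 178 FPKM (2.68 ± 0.30). Profilin Pfn1 (243 and 159 against 1326 and 1053 FPKM; -2.58 ± 0.31) and Acta2 (33.2 and 15.0 against 128 and 105 FPKM; -2.31 ± 0.34) were lower. Over actin cytoskeleton and Srf targets, 5 of 26 rose and 14 fell (10 and 7 after trimmed mean scaling). As deposited, both shares were close to those of all genes compared (17.9% and 58.7%). The list's median difference was -0.79 (-0.83 to 0.16 over the alternatives), and 9 fell without PFA-perfused replicate 1. Of tubulins, 2 of 12 rose and 8 fell (3 and 6 after trimmed mean scaling), with Tubb6 at 271 and 189 against 16.9 and 19.8 FPKM (3.55 ± 0.27) and Tuba1b at 36.8 and 25.7 against 189 and 191 FPKM (-2.59 ± 0.32), and 1 rose without unperfused replicate 1 or without PFA-perfused replicate 2. The tubulin median was -1.52 (-1.73 to -0.68 over the alternatives). Reads of the close tubulin copies are hard to assign.

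Genes for contraction, fusion and membrane excitability were measured in part. Of sarcomere and fusion genes, 0 of 15 rose and 7 fell (2 and 5 after trimmed mean scaling), and 3 of the 15 reached the minimum only in both PFA-perfused libraries. Their median was -0.83 (-1.79 to -0.14 over the alternatives), and 3 were called lower without unperfused replicate 2 and 1 higher without PFA-perfused replicate 1. At an unadjusted p under 0.05 in limma, again none was higher. Myog, the differentiation factor, was at 3.62 and 2.43 against 15.8 and 61.0 FPKM (-3.02 ± 0.75), the fusion protein Tmem8c at 1.09 and 0.857 against 9.11 and 40.0 FPKM (-3.37 ± 0.76) and Tnnt1 at 9.61 and 6.14 against 74.1 and 43.7 FPKM (-2.74 ± 0.29). The PFA-perfused values of Myog and Tmem8c lie several-fold apart, and Myog was not called without unperfused replicate 2 (-2.80, adjusted p = 0.0510). Of ion channels, 27 of 136 were measured, and 4 of 27 rose and 18 fell (5 and 13 after trimmed mean scaling). Their share called higher is close to the 17.9% of all genes compared, and 8 of the 27 reached the minimum only in both PFA-perfused libraries. Their median was -1.09 (-1.63 to -0.22 over the alternatives), and 2 rose without unperfused replicate 2. The potassium channel Kcnn3 was at 16.1 and 19.6 against 336 and 217 FPKM (-3.85 ± 0.34).

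**Figure D4:**
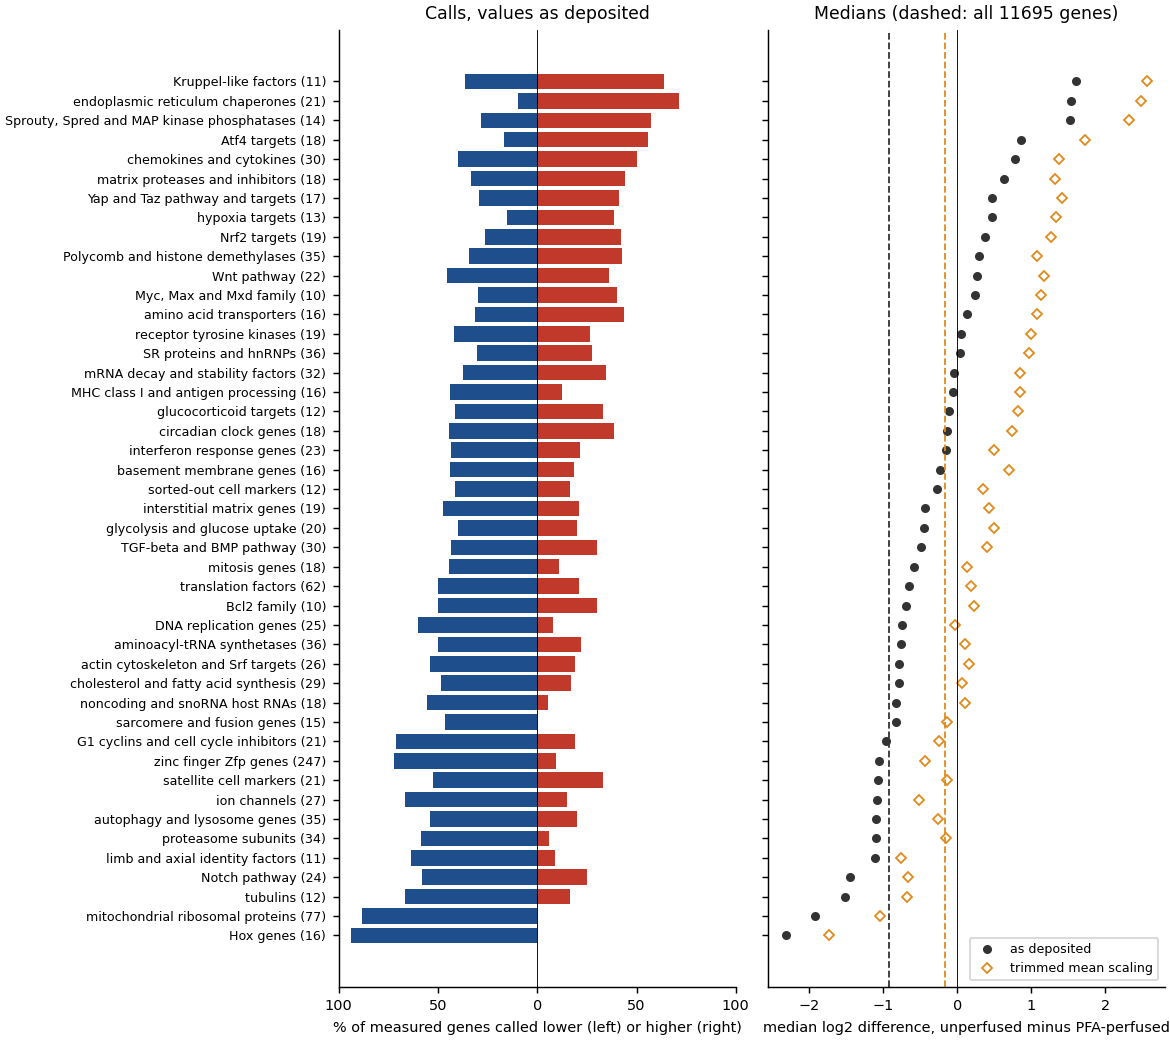
For each gene list with at least 10 measured members (number in brackets), the left panel gives the percentage called lower (blue, to the left) and higher (red, to the right) in unperfused cells, and the right panel the median log2 difference as deposited (black circle) and after trimmed mean scaling (orange diamond). Dashed lines mark the medians of all genes compared, -0.92 and -0.17; Kruppel-like factors and endoplasmic reticulum chaperones lie highest of the lists shown, and Hox genes and mitochondrial ribosomal proteins lowest.

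PBS-perfused cells were unfixed as well and their RNA went through the same kit as that of unperfused cells, so the values of both unfixed groups were set side by side. Perfusion and genotype label still differ between these groups, and cannot be told apart. The comparison with PFA-perfused cells and this one share the unperfused libraries. Of the 11695 genes, 50.1% were called between unperfused and PBS-perfused cells: 1625 were higher (13.9%) and 4230 lower (36.2%) in unperfused than in PBS-perfused cells, or 2734 (23.4%) and 2847 (24.3%) after trimmed mean scaling. Genes of the endoplasmic reticulum chaperone list, most of which were higher than in PFA-perfused cells, had 0 of 21 higher and 5 lower than in PBS-perfused cells. Hspa5 was at 11073 and 4565 FPKM in PBS-perfused libraries (0.60 ± 0.47, adjusted p = 0.31 against unperfused cells). Chemokines and cytokines had 3 of 30 higher and 20 lower, and Cxcl1 was at 2377 and 7159 FPKM, above both unperfused values (-2.26 ± 0.68, adjusted p = 0.022). Atf4 targets had 2 of 18 higher and 5 lower, and Kruppel-like factors 4 of 11 higher and 4 lower.

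Values of 9 other genes, chosen after they were seen, were highest in unperfused cells. Spry2 was at 10.2 and 13.0 FPKM in the PBS-perfused libraries (7.40 ± 0.27, adjusted p = 1.73e-06), Lrrc8a at 7.02 and 3.17 (6.93 ± 0.31) and Cdv3 at 25.1 and 15.7 (5.92 ± 0.26). Jag1 was at 10.02 and 7.27 FPKM (4.31 ± 0.30), Notch2 at 4.90 and 10.5 (4.69 ± 0.36) and Maml2 at 3.16 and 1.87 (4.17 ± 0.26). Klf13 (16.8 and 10.9 FPKM; 5.69 ± 0.32), Kdm6b (18.8 and 42.3 FPKM; 4.43 ± 0.34) and Actb (366 and 674 FPKM; 4.63 ± 0.42) showed the same. For each of these 9 genes both unperfused values exceeded all 4 values of the perfused groups, which is the pattern they were chosen for. The share of all genes with this pattern was not counted. Polycomb proteins and histone demethylases had 15 of 35 higher and 6 lower than in PBS-perfused cells, as deposited. Of all genes compared, 13.9% were higher and 36.2% lower. Among satellite cell markers, Pax7 was at 48.3 and 79.6 FPKM in PBS-perfused libraries, between the other groups (-1.58 ± 0.31), and Myod1 at 703 and 794, above both (-1.26 ± 0.26). Myf5 (142 and 93.1 FPKM; 3.96 ± 0.38) and Ncam1 (23.2 and 23.7 FPKM; 4.41 ± 0.24) were lower in PBS-perfused libraries than in unperfused ones. Hes1 was at 29.3 and 34.3 FPKM in PBS-perfused libraries (-4.45 ± 0.21), and Hoxc9 at 8.11 and 9.71 (-1.88 ± 0.18).

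The difference between unperfused and PFA-perfused cells varied with transcript length and base composition. Properties were taken from GENCODE M21 for 99.4% of the genes compared. With the genes cut into 5 groups of equal size from the shortest to the longest transcript (median lengths of 1150, 2100, 3061.5, 4260 and 6665 bases) the median difference was -1.54, -1.22, -0.89, -0.53 and -0.42. Over 5 such groups by GC content (medians of 41.8 to 58.2%) it went from -0.52 to -1.50. Genes called higher had a median length of 3813 bases and a GC content of 48.2%, and genes called lower 2651 bases and 51.5%. Across 11621 genes, which are not independent replicates, Spearman's rho of the difference was 0.29 with length and -0.25 with GC content. The part of length and GC content in each gene group was tested only through the correction below. After a correction of each library for length and GC content, chosen after the data had been seen, 1915 genes were higher (16.4%) and 7041 lower (60.2%). Under it 15 genes of the chaperone list rose and none fell, no Hox gene rose and 15 fell, and 1 mitochondrial ribosomal protein gene rose and 66 fell. Other lists shifted: Polycomb proteins and histone demethylases had 11 higher and 14 lower, against 15 and 12 as deposited. Medians of 6 of 47 lists changed sign, among them Wnt (-0.24), receptor tyrosine kinases (-0.37) and integrins (-0.27).

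**Figure D5:**
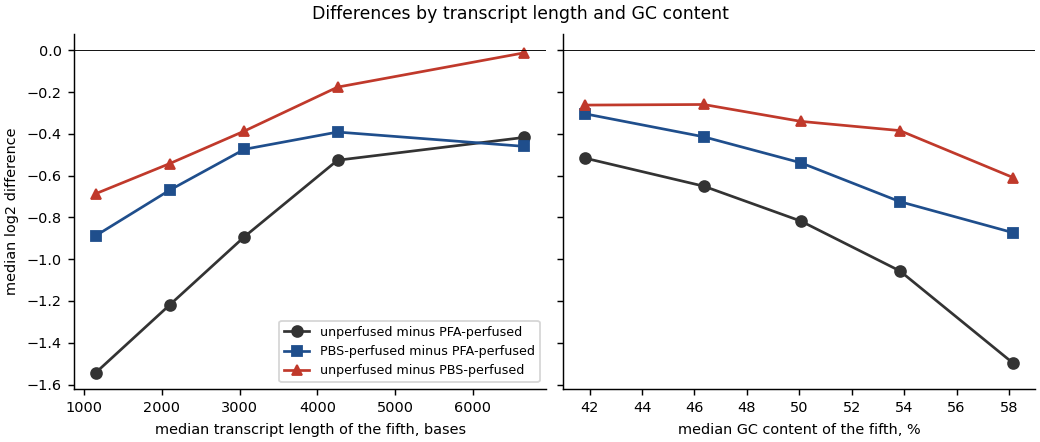
Median log2 difference (y axis) of 5 groups of genes of equal size by transcript length (left, bases) and GC content (right, percent), for unperfused minus PFA-perfused (black), PBS-perfused minus PFA-perfused (blue) and unperfused minus PBS-perfused cells (red); the 3 lines share libraries. The black line rises from -1.54 to -0.42 with length and falls from -0.52 to -1.50 with GC content.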

How the data were processed

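RNA was amplified with SMART-Seq v4 and made into libraries with Ovation Ultralow reagents, per the labels' protocols. The submitters' processing notes name STAR 2.5.3a, StringTie 1.3.3, R 3.4.1 and the build mm9. The authors' deposited table gives 1 value per gene and library, and its header names no unit. These deposited values were read as FPKM, from their range and because StringTie, named per the labels, writes that unit; how the authors ran each tool is not given in the sources used here. Total FPKM per library ran from 461454 to 582336. No read counts were used and no whole-read steps were found, so sequencing depth is unknown. The number of reads, the mapping rate and any difference in sequencer between libraries could not be weighed.

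Genes with at least 1 FPKM in at least 2 of all 8 libraries (12515) were fitted with limma 3.58.1 in R 4.3.3 on log2(FPKM + 1), with 4 groups of 2 libraries, a trend in the prior variance and 4 residual degrees of freedom. The contrast was unperfused minus PFA-perfused. P-values were adjusted over all genes fitted (Benjamini-Hochberg, threshold 0.05), and only the 11695 genes of the comparison are reported. No scaling between libraries was applied in the main analysis. Trimmed mean scaling left out 30% of log ratios and 5% of levels at each end. The code was tested on simulated data with known changes. Named genes were the 14 largest rises and 14 largest falls among called genes whose groups did not overlap and whose higher group averaged at least 10 FPKM, up to 3 called members per direction of each list with a mean of at least 5 FPKM, and all satellite cell markers and Y-linked check genes. Some genes that this rule names are not reported here. The members, lists and tests were chosen with earlier results of these data known. The replicate numbers of the labels are shared between groups, but no label says that they mark a shared animal or day.

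Promoter and microRNA sequences are RefSeq's (GRCm38.p6), and transcript lengths and GC content are from GENCODE M21. The coordinates of the deposited table's build were not used. Of 11 motifs searched on both strands in the 250 bases before the first listed start, the report gives the ones for endoplasmic reticulum stress and NF-kB, chosen with the results in view.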

Additional observations from a re-analysis of the deposited data

How the results depend on the processing

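The counts of genes higher and lower in unperfused than in PFA-perfused cells (2095 and 6867) depended on scaling. The higher count was 3783 with trimmed mean scaling and 3673 with quantile normalization, and the lower count was 4520 with quantile normalization. Against PBS-perfused cells, the higher count was 2734 with trimmed mean scaling and 2715 with quantile normalization, and the lower count 2782 with quantile normalization and 2639 when a log2 difference beyond 1 was also required. The cause was not tested. With 1 library left out the counts ran from 1746 to 1979 and from 5754 to 6854 against PFA-perfused cells, and from 1312 to 1604 and from 2964 to 4257 against PBS-perfused cells. With a replicate block they were 2145 and 6937, and 1691 and 4380. The block changed the call of none of the 273 named genes, and same-numbered libraries of both groups deviated with a correlation of 0.06 across genes. No label ties the numbers to an animal or a day. With trimmed mean scaling, called or gained values turned sign for Ddit3 (0.0628), Eif2s3y (0.11), Itgb1 (0.58), Mad2l1 (0.0423), Shmt2 (0.0741), Syvn1 (0.15) and Xbp1 (0.0809). With quantile normalization this held for Ddit3 (0.0030), Itgb5 (0.18), Mad2l1 (0.33) and Syvn1 (0.24), and with the length and GC correction, chosen after seeing the data, for Ddit3 (0.0266). Medians of 17 of 47 gene lists turned sign with trimmed mean scaling, 14 with quantile normalization and 6 with the length and GC correction. With 2 libraries a group, small differences may be missed, and the depth is unknown.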
